A study of Mus musculus with 5 samples.

Results

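Complement is a set of plasma and cell-surface proteins that mark microbes and dying cells for removal. C1q (a complex of the C1qa, C1qb and C1qc chains) starts the classical pathway, C3 is the central component that all pathways cleave, and factor B (Cfb) and properdin (Cfp) build and stabilise the alternative pathway convertase. The fragments C3a and C5a released on the way act on cells through the receptors C3ar1 and C5ar1, and C5ar2 is a second C5a receptor that does not couple to G proteins in the usual way. Macrophages make several of these proteins themselves and migrate towards C5a. The 9 genes described here, C1qa, C1qb, C1qc, C3, Cfb, Cfp, C3ar1, C5ar1 and C5ar2, were taken by symbol from the 21990 genes of the deposited expression table, and all 9 were found with a value.

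The cells were RAW264.7, a mouse monocyte/macrophage line. Control cells carried Renilla luciferase, and CD137 cells carried Renilla luciferase together with mouse Cd137 (gene Tnfrsf9, a TNF receptor family member that co-stimulates T cells), in a study of osteoclast formation and monocyte migration in bone metastasis. The luciferase is therefore shared by both groups; the vector, its promoter and the clonal state of either line were not given in the sources used here. Of 5 samples, 2 control and 3 CD137, the table used here covers 3: control replicate 2 and CD137 replicates 2 and 3. Expression is in FPKM (fragments scaled to transcript length and sequencing depth), so levels can be compared between genes. The control is 1 library without a replicate error; means ± SD are given for the 2 CD137 libraries. The labels do not say whether libraries stem from separate cultures, and p-values therefore measure only how these libraries spread, which may be a technical spread.

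The label check gene Tnfrsf9 was at 5.06 FPKM in the control library and at 364 and 370 FPKM in CD137 replicates 2 and 3. Whole fragments behind the FPKM values were recovered for 14083 of 16003 genes with a value, including all 9 members, and the depth relative to the control was 0.983 for CD137 replicate 2 and 0.988 for CD137 replicate 3. Of 10 macrophage markers 9 reached 1 FPKM in some library, with Mrc1 at 0.02 to 0.05 FPKM. Of these 9, 4 rose (Fcgr1, Itgam, Adgre1 and Ptprc), 4 fell (Lyz2, Csf1r, Cd14 and Cd68) and Spi1 did not pass, with a median log2 change of 0.11; the summed level of the list was 3122 FPKM in the control and 1964 and 2012 FPKM in the CD137 libraries, with Lyz2 alone at 1693, 646 and 669 FPKM. Of 6 osteoclast markers 2, Acp5 and Dcstamp, reached 1 FPKM and both rose; the list summed to 15.51, 21.97 and 21.02 FPKM. Whether these shifts play a part in the results below was not tested. No hepatocyte marker (0 of 6) and no fibroblast marker (0 of 6) reached 1 FPKM, with summed levels between 0.38 and 1.10 FPKM and between 0.30 and 0.99 FPKM per library. The same held for T cell markers (0 of 5, 0.45 to 0.62 FPKM). Among B cell markers Cd79b reached 1 FPKM (0.14, 0.34 and 1.01 FPKM) and among neutrophil markers Csf3r did (8.21, 7.17 and 8.18 FPKM), and neither passed the test described next. In what follows a gene "rose" or "fell" when it passed an adjusted p of 0.05 in limma (log2(FPKM + 1), Benjamini-Hochberg over 10720 genes with at least 1 FPKM in some library). Of these genes 24.4 percent were called higher and 18.2 percent lower in CD137 cells; in the limma fit of all 16003 genes with a value 0 genes (0 percent in either direction) passed, while 5281 had an unadjusted p under 0.05.

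Among the 9 members properdin had by far the highest transcript level, the anaphylatoxin receptors C3ar1 and C5ar1 were at moderate levels, and the C1q genes were at or next to 0. In the control the order was Cfp (148 FPKM), C3ar1 (8.71 FPKM), C5ar1 (5.83 FPKM), C3 (0.86 FPKM), C5ar2 (0.34 FPKM), Cfb (0.26 FPKM) and the C1q genes (0 FPKM). The order was the same in CD137 cells except that Cfb (0.30 ± 0.10 FPKM, SD, n = 2) lay above C5ar2 (0.23 ± 0.07 FPKM), and these neighbours overlapped between libraries. Of the 9 members 4 (C3, C3ar1, C5ar1 and Cfp) passed the 1 FPKM filter, C3 only through CD137 replicate 3. Among those 4, C5ar1 fell, 0 rose, and 3 did not pass; with 1 call against a background of 42.6 percent called in either direction, the count is not a result about complement genes as a group. The median log2 change of the 4 was 0.09, beside 0.03 over all expressed genes. As C3 entered through the library where it was highest, this median and the next count are a description. The control lay below both CD137 libraries for 3 of these 4 genes and above both for 1, where 49 and 40.2 percent of expressed genes did so (89.2 percent in either direction). Over all 9 members it lay below both for 3 and above both for 2, beside 43.5 and 34 percent of genes with a value (77.5 percent in either direction). No member was higher at an unadjusted p under 0.05 in limma either (0 of 4); in limma-voom on the recovered fragments 1 member, C3ar1, was higher at that unadjusted level and 0 after adjustment.

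**Figure D1:**
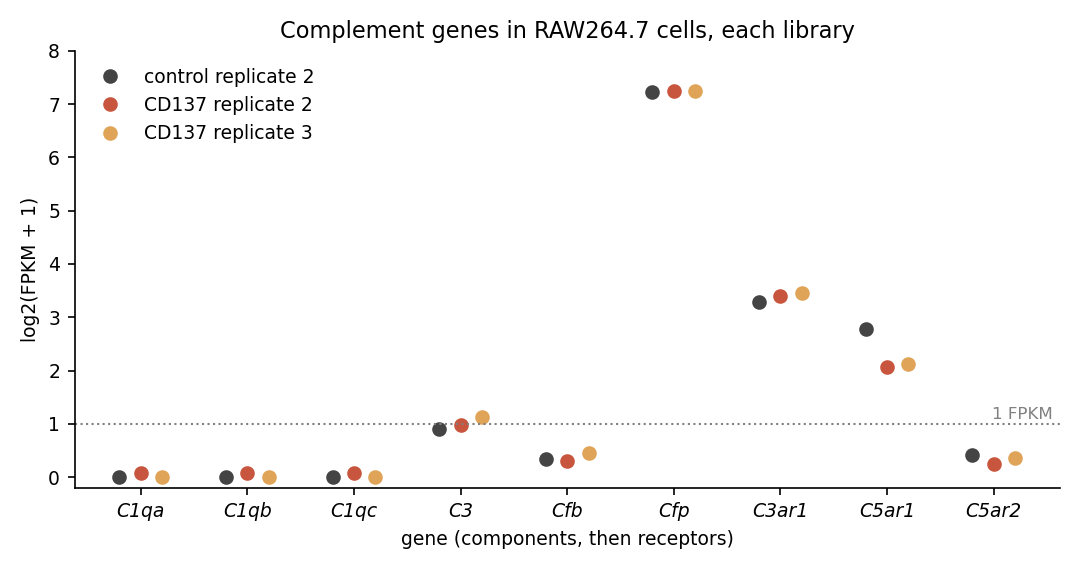
Level of the 9 complement genes in each library, as log2(FPKM + 1); each point is 1 library and the dotted line marks 1 FPKM. Cfp lies far above the rest at 148 to 151 FPKM, the C1q genes lie at the bottom, and C5ar1 is the gene whose CD137 points (3.21 and 3.35 FPKM) sit clearly below the control point (5.83 FPKM).

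Properdin is a positive regulator of the alternative pathway that holds the C3 convertase together. Its gene Cfp (gene ID 18636, chromosome X from 20925454 to 20931555 in mm10, minus strand) was at 148 FPKM in the control library and at 150.2 and 151 FPKM in CD137 replicates 2 and 3, so the 3 libraries were nearly level. It ranked 448th, 438th and 443rd of 16003 genes in these libraries. The fragments behind the values were 4310, 4289 and 4331, and after depth scaling CD137 replicates 2 and 3 were at 1.01 (95 percent interval 0.970 to 1.06, exact binomial) and 1.02 (0.975 to 1.06) of the control. Among all members this is the tightest comparison, and both intervals hold 1. The log2 change was 0.02 ± 0.04 (SE, limma adjusted p = 0.659), and its sign turned under median-of-ratios scaling (-0.01). Such intervals, here and below, cover counting error only, each compares 1 pair of libraries, and fragments are not counted by molecule.

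C3, whose cleavage is the common step of all pathways, and Cfb, the protease of the alternative convertase, were both low: C3 lay near 1 FPKM and Cfb between 0.23 and 0.37 FPKM. C3 (gene ID 12266, chromosome 17 from 57203967 to 57228136, minus strand) was at 0.86, 0.96 and 1.2 FPKM in the control and CD137 replicates 2 and 3. Both CD137 values lay above the control, but the gap between them was wider than the gap from the control to the nearer one, and the gene did not pass (log2 change 0.16 ± 0.15 SE, limma adjusted p = 0.420); under quantile normalization the sign turned (-0.03). The fragments tell the order of the CD137 libraries differently, with 65 in the control, 87 in CD137 replicate 2 and 82 in CD137 replicate 3. Scaled for depth these were 1.36 (0.976 to 1.91) and 1.28 (0.911 to 1.80) of the control, where the FPKM ratios were 1.12 and 1.40. One FPKM of C3 corresponded to 75.6, 90.6 and 68.3 fragments in the 3 libraries, whereas for C3ar1 and Cfp, each with 1 transcript in the table, the same quantity varied from 76.0 to 77.4 and from 28.6 to 29.0. The table counts 2 transcripts for C3 and also 2 for C5ar1, where the quantity varied from 43.6 to 44.6. For Cfb, with 4 transcripts, it varied from 47.8 to 50, and for C5ar2, with 10, from 44.4 to 60.7. Why it varied for C3 was not tested. Cfb (gene ID 14962, chromosome 17 from 34856374 to 34862514, minus strand) was at 0.26, 0.23 and 0.37 FPKM, from 13, 11 and 18 fragments. Its control value lay between the CD137 values, and the fragment ratios of 0.861 (0.349 to 2.08) and 1.40 (0.649 to 3.11) lie on either side of 1, so no difference was detectable at this depth. Nelfe, on the opposite strand, ends 2 bases from Cfb and was at 40.3 FPKM in the control; strand use in counting is not given in the sources used here, so reads running past the end of Nelfe cannot be told apart from Cfb reads.

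The 3 C1q chain genes lie in a row on chromosome 4, C1qb from 136880145 to 136886177, C1qc from 136889802 to 136892932 and C1qa from 136895916 to 136898844 (gene IDs 12260, 12262 and 12259, all on the minus strand). All 3 are known as abundant transcripts of tissue macrophages. Here each had 0 fragments in the control, 1 fragment in CD137 replicate 2 and 0 fragments in CD137 replicate 3. A count of 0 allows up to 3 fragments, about 0.15 FPKM for C1qa and C1qb and 0.18 FPKM for C1qc, and no difference between the groups was detectable at this depth. The level of Cfp was at least 989-fold above that limit of C1qa in the control. Of 19 relatives that share the C1q domain, 14 had a value and 2 reached 1 FPKM: C1qtnf6, a secreted C1q/TNF-related protein, rose from 7.97 FPKM to 13.7 ± 0.08 FPKM (log2 change 0.71 ± 0.06 SE, limma adjusted p = 0.00183), and Emilin2, an extracellular matrix glycoprotein, did not pass at 92.8 FPKM in the control and 87.2 ± 0.25 FPKM with CD137.

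C5ar1, the receptor through which C5a attracts and activates myeloid cells, was lower in CD137 cells. The gene (gene ID 12273, chromosome 7 from 16246743 to 16259540, minus strand) was at 5.83 FPKM in the control library, against 3.21 and 3.35 FPKM in CD137 replicates 2 and 3. Both CD137 libraries lay below the control and close to each other. In such bulk samples fewer cells that express a gene and less RNA per cell cannot be told apart. The fragments were 260, 140 and 147, and the depth-scaled ratios to the control were 0.548 (0.443 to 0.675) and 0.572 (0.464 to 0.703). The log2 change was -0.67 ± 0.09 (SE, limma adjusted p = 0.00472 among expressed genes); in the fit of all genes it had an unadjusted p of 0.00809 and an adjusted p of 0.0817 and did not pass. In the authors' deposited table the Poisson test on 2 libraries gave C5ar1 an adjusted p of 3.12e-08 and 2.32e-07 for CD137 replicates 2 and 3 against the control, which compares those libraries and not the conditions.

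**Figure D2:**
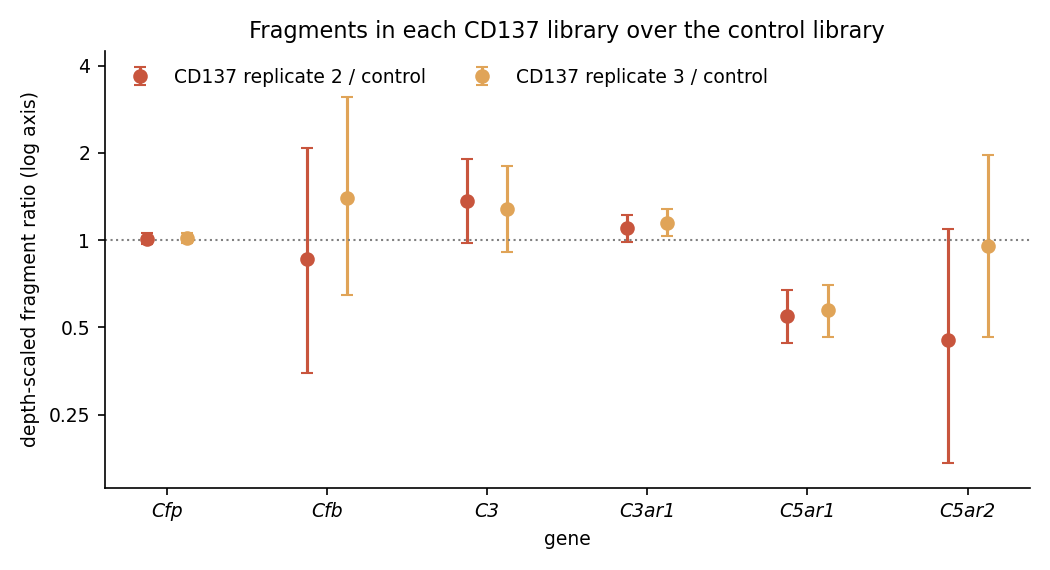
Depth-scaled ratio of recovered fragments in each CD137 library to the control library for the 6 members with fragments in the control, on a log axis; bars are exact binomial 95 percent intervals for counting error. Only the C5ar1 intervals lie wholly below 1 in both libraries, Cfp is held close to 1, and the intervals of Cfb and C5ar2, with 8 to 18 fragments a library, are wide.

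C5ar2 lies 2589 bases from C5ar1 and was far less abundant. C5ar2 (gene ID 319430, chromosome 7 from 16234585 to 16244154, minus strand) was at 0.34, 0.18 and 0.28 FPKM in the control and CD137 replicates 2 and 3, from 18, 8 and 17 fragments. The control was the highest value, but CD137 replicate 3 had nearly the same number of fragments as the control, with a ratio of 0.956 (0.463 to 1.97) beside 0.452 (0.170 to 1.09) in CD137 replicate 2. C5ar2 stayed under the filter and was not tested among expressed genes, and a difference between the groups was not detectable at this depth. On the other side of C5ar1, Inafm1 and Ccdc9 rose 1.28-fold and 1.22-fold; the call of Inafm1 was lost under both rescalings and without limma's trend. Dhx34, beyond C5ar2, did not pass (12.5, 12.2 and 11.9 FPKM).

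C3ar1, the receptor for C3a (gene ID 12267, chromosome 6 from 122847140 to 122856157, minus strand), was at 8.71, 9.56 and 10.02 FPKM in the control and CD137 replicates 2 and 3. Both CD137 values were above the control, by 1.10 and 1.15 times. The fragments were 674, 727 and 766, with depth-scaled ratios of 1.10 (0.987 to 1.22) and 1.15 (1.04 to 1.28). The log2 change of 0.15 ± 0.07 (SE) did not pass (limma adjusted p = 0.132). In the authors' deposited table the pairwise Poisson test gave C3ar1 an adjusted p of 0.166 for CD137 replicate 2 and 0.0220 for CD137 replicate 3. The FPKM of C3ar1 was 1.49 times that of C5ar1 in the control and 2.98 and 2.99 times in the CD137 libraries. The change in this ratio was not tested.

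**Figure D3:**
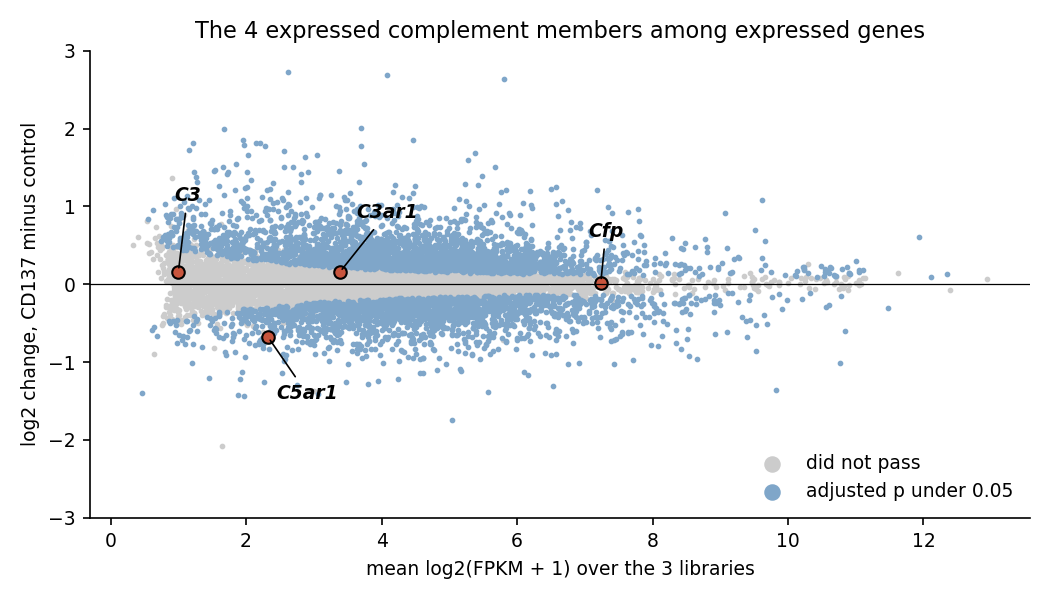
Log2 change between CD137 and control cells against mean level, log2(FPKM + 1), for 10720 expressed genes, with the 4 expressed complement members in red; 2 genes beyond ±3 lie outside the plot. C5ar1 lies in the lower band of called genes at a log2 change of -0.67, while C3, C3ar1 and Cfp lie in the grey band that did not pass.

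Promoter windows from RefSeq (GRCm38.p6, the assembly of mm10) were found for 7 of the 9 members, not for C1qa and Cfb. The 250 bases before each start site were searched on both strands for the PU.1 core GAGGAA, the C/EBP site TTNNGNAA, the AP-1 site TGANTCA and the NF-kB consensus; any overlap with a GENCODE exon was cut off first. These motifs were present in 23.3, 36.8, 6.75 and 3.9 percent of 32851 RefSeq windows of 250 bases. Those windows were not cut at exons, so the shares are for longer stretches than a cut window such as that of C5ar1 (174 bases). The 4 windows below are those of the most abundant member, the central component, the gene that fell and a C1q chain without fragments in the control; matches are in capitals, and letters run 5′ to 3′ on the minus strand. The C5ar1 stretch precedes the only RefSeq start site found for that gene, at 16259338, and was cut at a GENCODE exon of C5ar1. It lies inside the span of the gene given above.
Cfp (chrX:20931556-20931805): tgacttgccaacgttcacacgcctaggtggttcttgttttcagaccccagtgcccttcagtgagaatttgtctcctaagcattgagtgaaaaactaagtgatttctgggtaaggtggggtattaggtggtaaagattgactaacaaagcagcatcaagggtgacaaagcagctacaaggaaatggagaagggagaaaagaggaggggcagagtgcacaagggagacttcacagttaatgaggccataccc
C3 (chr17:57228137-57228386): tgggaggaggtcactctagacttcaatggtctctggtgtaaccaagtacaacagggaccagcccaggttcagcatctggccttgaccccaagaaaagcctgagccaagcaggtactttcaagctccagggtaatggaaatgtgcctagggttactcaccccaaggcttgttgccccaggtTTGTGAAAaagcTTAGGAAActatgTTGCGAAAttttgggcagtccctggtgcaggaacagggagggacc
C5ar1 (chr7:16259339-16259512): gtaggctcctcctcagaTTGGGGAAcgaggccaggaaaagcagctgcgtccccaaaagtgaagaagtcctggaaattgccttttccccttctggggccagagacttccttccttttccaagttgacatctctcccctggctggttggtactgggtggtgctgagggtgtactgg
C1qb (chr4:136886201-136886450): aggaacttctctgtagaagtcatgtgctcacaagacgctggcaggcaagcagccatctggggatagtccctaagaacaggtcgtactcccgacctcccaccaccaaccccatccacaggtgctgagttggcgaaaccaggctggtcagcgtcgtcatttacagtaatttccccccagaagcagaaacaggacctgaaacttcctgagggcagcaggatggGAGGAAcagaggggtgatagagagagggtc
The C3 window held 4 C/EBP matches on 3 stretches, 1 of which reads as a match on both strands. C5ar1 had 1 C/EBP match, C1qb had 1 PU.1 match, and the Cfp window had 0 matches to the motifs searched. The NF-kB consensus was matched in 0 of the members' windows. A match describes letters only.

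Transcription factors known to act on complement genes in macrophages went in both directions. Of 17 expressed factors on that list 5 rose, 3 fell and 9 did not pass, with a median log2 change of -0.04 beside 0.03 over all expressed genes. As 24.4 percent of all expressed genes rose and 18.2 percent fell, these counts are not a result about the factors. Spi1, which encodes PU.1, did not pass at 97.3 FPKM in the control and 105 ± 2.67 FPKM with CD137. Cebpa, a C/EBP factor of myeloid cells, fell from 6.63 to 4.56 ± 0.26 FPKM, and Irf8, an interferon regulatory factor of the same lineage, from 26.6 to 21.3 ± 0.23 FPKM. Cebpb did not pass, at 30.3 and 29.4 ± 0.21 FPKM. Of the NF-kB genes, Nfkb2 rose 2.47-fold, Relb 2.25-fold and Nfkb1 1.14-fold, and Rel fell to 0.697 of the control. The Nfkb1 call was lost under both rescalings and without limma's trend, and the Rel call without the trend. The interferon regulatory factor genes Irf7 and Irf1 rose 2.68-fold and 1.49-fold.

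Outside the 9 members the expressed complement genes moved in both directions. Of 56 genes on 4 further lists 44 had a value and 16 were expressed, beside 10720 of 21990 genes in all, and control levels of the 16 ran from 0.70 FPKM (Cd46) to 568 FPKM (Calr). Of these 16 genes 7 rose, 7 fell and 2 did not pass, with a median log2 change of 0.19. Over all expressed genes 24.4 percent rose and 18.2 percent fell, with a median of 0.03. Cd46, Itgax and C8g, each higher in both CD137 libraries than in the control, passed the 1 FPKM filter only through the CD137 libraries. The lists were also chosen with earlier results known, so these counts and the median are a description. Among the classical and lectin starters 4 of 16 were expressed. C1ra, a protease that C1q activates, fell from 6.06 FPKM to 3.58 ± 0.16 FPKM (log2 change -0.63 ± 0.09 SE, limma adjusted p = 0.00585); part of its reads could belong to the near-identical copy C1rb, which was at 0.56, 0.14 and 0.20 FPKM. Colec12, a scavenger receptor of the collectin family, fell from 72.7 to 38.6 ± 0.19 FPKM. Ficolin A (Fcna), a lectin that starts the lectin pathway, rose from 8.49 to 11.1 ± 1.17 FPKM, a call lost under both rescalings of the libraries and without limma's trend. Masp2, the protease of that pathway, did not pass at 2.64, 3.13 and 3.66 FPKM. Of the terminal components and factor D, C8g alone reached 1 FPKM, at 0.96, 1.18 and 1.16 FPKM, and did not pass.

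Of 5 expressed complement regulators 4 rose and 1 fell, beside 24.4 and 18.2 percent of all expressed genes. One that rose, Cd46, passed the 1 FPKM filter only through the CD137 libraries, so the count is a description. Cd59a, a membrane inhibitor of the terminal pore, was at 2.81, 7.51 and 6.1 FPKM in the control and CD137 replicates 2 and 3 (log2 change 1.03 ± 0.13 SE, limma adjusted p = 0.00431). Clusterin (Clu), a secreted chaperone that also binds terminal complexes, was at 3.93, 9.49 and 6.12 FPKM, so the size of its increase differed between the CD137 libraries (limma adjusted p = 0.0426). Cd46, a cofactor for C3b cleavage, went from 0.70 to 1.39 and 2.0 FPKM. The calls of Clu and Cd46 were lost without limma's trend and under quantile normalization, which left 2 regulators called higher in each. Cr1l, which encodes the rodent regulator Crry and is the most abundant of the group, rose from 76.0 to 89.7 ± 0.08 FPKM.

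**Figure D4:**
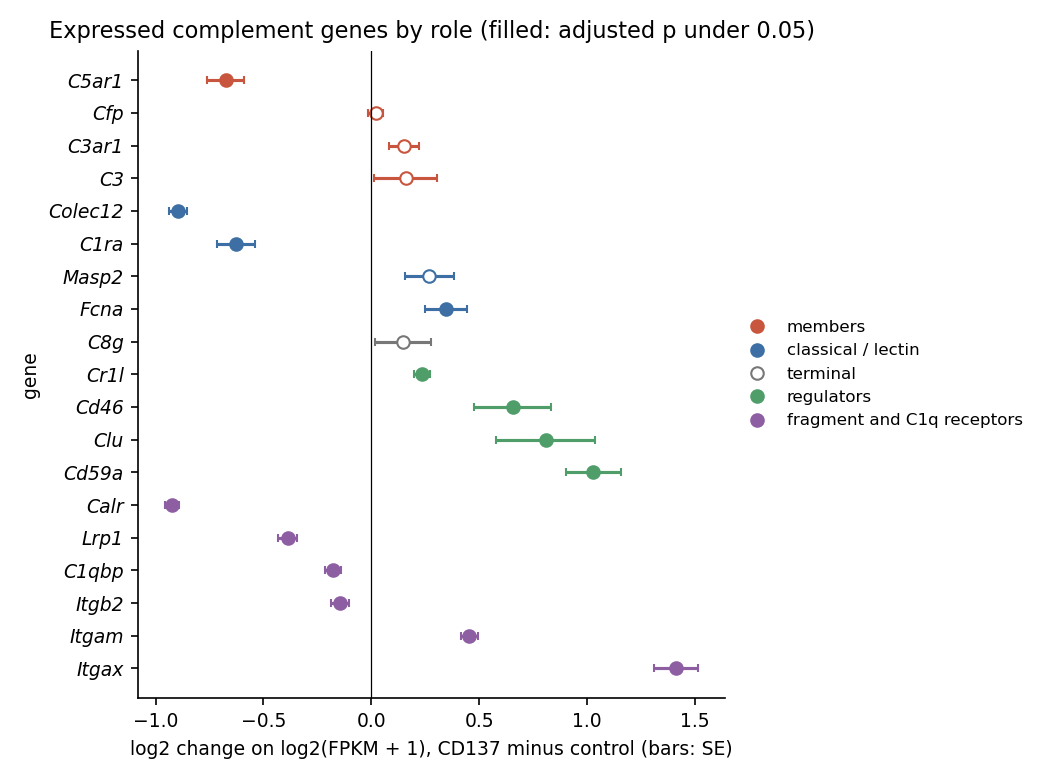
Log2 change between CD137 and control cells for the 4 expressed members and 15 of the 16 expressed genes of 4 other complement lists, by role; bars are SE from limma, and filled points passed an adjusted p of 0.05. The 4 regulators drawn lie to the right of 0, while C5ar1, C1ra, Colec12 and Calr are the genes left of -0.5.

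Among 6 expressed receptors for complement fragments and C1q, 2 rose and 4 fell, beside 24.4 and 18.2 percent of all expressed genes. Itgax, 1 of the 2 that rose, passed the 1 FPKM filter only through the CD137 libraries, so the count is a description. Itgax, the alpha chain of complement receptor CR4, was at 0.72, 3.57 and 3.6 FPKM in the control and CD137 replicates 2 and 3. Itgam, the alpha chain of CR3, was at 57.5, 79.1 and 79.2 FPKM. Their shared beta chain Itgb2 fell slightly, from 92.9 to 84.0 ± 1.48 FPKM (log2 change -0.15 ± 0.04 SE, limma adjusted p = 0.0408), a call lost without limma's trend. Calreticulin (Calr), mainly a chaperone of the endoplasmic reticulum and also a C1q-binding protein, fell to 0.526 of the control, and Lrp1, an endocytic receptor, to 0.760. C1qbp, a mitochondrial protein that binds C1q, fell to 0.884, a call lost without limma's trend and under quantile normalization.

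The partners through which C5ar1 signals were largely expressed. Of 22 expressed G protein, effector and desensitiser genes 4 rose, 6 fell and 12 did not pass (median log2 change -0.04). As 24.4 percent of all expressed genes rose and 18.2 percent fell, these counts are not a result about this list. Gnai2, the main inhibitory G protein alpha subunit of myeloid cells, fell from 263 to 172 ± 2.73 FPKM, and the kinase Pik3cg from 20.0 to 14.6 ± 0.40 FPKM. The alpha subunit genes Gnai3 and Gnaq rose 1.15-fold and 1.27-fold, the call of Gnai3 being lost without limma's trend. Both arrestin genes, which switch receptors off, fell: Arrb1 to 0.760 and Arrb2 to 0.740 of the control. Rgs1, which speeds the shut-off of G proteins, rose from 14.6 to 30.1 ± 0.08 FPKM, while Rgs2 fell to 0.722 of the control. Of the receptor kinase genes, Grk5 rose 1.52-fold, a call lost under quantile normalization, and Grk6 fell to 0.748. Among 10 expressed chemoattractant receptors of other kinds 3 rose, 3 fell and 4 did not pass, where 24.4 percent of all expressed genes rose and 18.2 percent fell. Hcar2 passed the 1 FPKM filter only through the control, so the count is a description. Cx3cr1 fell to 0.288, Hcar2 to 0.433 and P2ry6 to 0.564 of the control, the last close to the 0.563 of C5ar1, while Ptafr, the receptor of platelet-activating factor, rose 1.82-fold and Ccrl2 rose 2.23-fold.

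The expressed genes whose change over the 3 libraries was nearest to that of C5ar1 were Isyna1, Esco2 and Mxd3, with log2 changes of -0.68, -0.68 and -0.67 and Euclidean distances of 0.0041, 0.014 and 0.014 on log2(FPKM + 1) relative to the control. For C3, the member with the largest positive value, they were Sigirr, Rdh14 and Napa, at log2 changes of 0.16, 0.16 and 0.16. With 3 libraries of 2 groups this likeness amounts to a similar change and a similar gap between the CD137 libraries.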

How the data were processed

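Library preparation used oligo-dT beads on total RNA, per the labels' protocols. The authors deposited FPKM per gene and library, rounded to 0.01, with log2 ratios, p-values and adjusted p-values of a Poisson test on library pairs, per the file headers. The authors' adjusted p-values exceed 1 for some genes and were therefore treated as a score, as deposited. Per the submitters' processing notes, HISAT2, Bowtie2, RSEM and mm10 were used, in roles they leave unstated; strandedness is not given in the sources used here. Of 21990 genes listed, 16003 had a value; 1 line without a symbol was left out.

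Members, lists and the naming rule (all members; list genes past the threshold or needed beside a member; the 3 nearest genes by change) were chosen with earlier results of these data known. Groups come from sample titles. Masp2, C8g, C1rb, Emilin2 and Cebpb were named after their values were seen. Some list genes enter the counts but are not reported here by name, and 1 is not drawn. The replicate 1 samples of both groups were not analysed here.

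The test was limma 3.58.1 (R 4.3.3; empirical Bayes with a mean-variance trend) on log2(FPKM + 1) for 10720 genes with at least 1 FPKM in some library, with 1 residual degree of freedom and Benjamini-Hochberg adjustment at 0.05. The control is assumed to vary as the CD137 libraries do. Log2 changes on this scale understate those of low genes. Fragments were solved from the p-values (a 2-sided test of one library's Poisson count given the other's), and summed to 8.71e+06, 8.58e+06 and 8.64e+06 in the control and CD137 replicates 2 and 3 over the 14083 genes solved, so true depth is higher. The solver and the fit were tested on simulated data. Alternatives were pseudocounts of 0.1 and 0.5, no filter, a filter at 5 FPKM, no trend, 2 rescalings, limma-voom on fragments, and leaving out each CD137 library.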

Additional observations from a re-analysis of the deposited data

How the results depend on the processing

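Without the filter on low values, limma called 0 genes higher and 0 lower (2614 and 1949 among expressed genes), and 0 complement members lower where 1 was called; 5281 genes and 1 member, C5ar1, then had an unadjusted p under 0.05. Only the number of genes tested and the spread borrowed from low genes differ in that fit. Every call on a gene named in the report was lost there. Under the 7 other alternatives with a test (pseudocounts of 0.1 and 0.5, a filter at 5 FPKM, no trend, median-of-ratios scaling, quantile normalization, limma-voom on 9023 genes with recovered fragments) the counts of genes and members called stayed within 1.5 times, and C5ar1 passed in each. Its adjusted p ranged from 3.2e-08 to 0.0817 over all of these fits and its log2 change from -0.84 to -0.67. Leaving out CD137 replicate 2 or 3 left 1 library on each side and no test; C5ar1 then had a log2 change of -0.65 and -0.70. The share of higher genes among those called was 57.3 percent, and 50.6 and 50.1 percent under the rescalings. Depth limits C5ar2, Cfb and the C1q genes, with 18 or fewer fragments in every library. No paired analysis was possible because the control and CD137 libraries share only replicate number 2.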
